A study of Mus musculus with 71 samples.

Results

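Siglech, Jchain, Runx2, Cox6a2, Bst2 and Pacsin1 were followed through every expression sample of a study of Pax5, the transcription factor that commits progenitors to the B cell lineage. These 6 genes were taken by symbol, as genes known to mark plasmacytoid dendritic cells, out of 25579 genes in each of 31 bone marrow samples and, for 5 of the 6, out of 24420 genes in each of 17 samples of early lymphoid and thymic cells. They were chosen with earlier results of these data known. Jchain was not analysed here in the lymphoid samples. These lymphoid and thymic samples were labelled wild type, except for a Rag2-/- group of thymic cells. All values are TPM, a measure of transcript abundance within a library that is corrected for gene length.

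Plasmacytoid dendritic cells (pDCs) are the main producers of type I interferon after virus exposure, and they sense viral nucleic acids through the endosomal receptors Tlr7 and Tlr9. Their identity depends on the E protein E2-2, which is encoded by Tcf4, with Spib and Irf8 acting beside it and Id2 opposing it. In the bone marrow, pDCs and B cells share early lymphoid progenitors, and both carry B220, the surface protein used in the sorts described here. Among the 6 genes, Siglech and Bst2 encode surface proteins, Runx2 encodes a transcription factor, and Jchain, Cox6a2 and Pacsin1 encode proteins of secretion, respiration and membrane traffic.

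The bone marrow samples came from C57BL/6 mice in 14 groups. Pax5 +/+ was represented by 5 samples and every other group by 2. The central domain mutants lacked the octapeptide (Pax5 ∆OP/∆OP), the partial homeodomain (Pax5 ∆HD/∆HD) or both (Pax5 ∆OP,HD/∆OP,HD). The C-terminal mutants lacked the regulatory domain CRD1, CRD2 or both, either in homozygous form (Pax5 ∆CRD1/∆CRD1, Pax5 ∆CRD2/∆CRD2, Pax5 ∆CRD1,2/∆CRD1,2) or over a Pax5 null allele (Pax5 ∆CRD1/-, Pax5 ∆CRD2/-, Pax5 ∆CRD1,2/-). Vav-Cre Pax5 fl/fl progenitors lost Pax5 through a Cre transgene that acts in all haematopoietic cells. A separate Prd experiment held Vav-Cre Pax5 fl/+, Vav-Cre Pax5 fl/fl and Vav-Cre Pax5 Prd/fl cells, the last expressing only the DNA-binding paired domain. The labels write ∆ as D and give no ages for these samples, and they do not say whether replicates of a group came from separate mice, so that p-values measure the spread between the sequenced samples.

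The sort differed between genotypes. Pax5 +/+, Vav-Cre Pax5 fl/+ and the ∆OP, ∆HD, ∆OP,HD, ∆CRD2 and ∆CRD1 mutants were sorted as B220+ Kit+ pro-B cells, called the pro-B sort here. Pax5 ∆CRD1,2/-, Pax5 ∆CRD1,2/∆CRD1,2, Vav-Cre Pax5 fl/fl and Vav-Cre Pax5 Prd/fl cells were sorted as Ly6D+ B220+ progenitors with high Kit, called the progenitor sort here, that lacked a set of lineage markers including CD11b and Ly6C. The labels of the Vav-Cre Pax5 fl/fl and Vav-Cre Pax5 Prd/fl samples of the Prd experiment name an alternative gating, which they do not define, and these samples are counted with the progenitor sort here. In every comparison between these 2 sorts, the sort and the genotype cannot be told apart. The gene total of Pax5, which counts all its exons, was 342 to 524 TPM in Pax5 +/+ and 1609 to 1697 TPM in Vav-Cre Pax5 fl/fl, so it does not show the deleted part and does not check the genotype.

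The promoters of the genes are shown first because motifs for factors of pDC biology can be looked up in them. Of the 6 genes, 5 had an entry in the RefSeq promoter table of GRCm38.p6, which gives 250 bases before and 50 after a start site. Each is written from 5′ to 3′ on the strand of its gene, and capitals mark matches on either strand to the E-box sequences CAGGTG and CATCTG, to the RUNX sequence TGTGGT or to the interferon-response sequence, in which GAAA is followed by 2 bases of any kind and again GAAA.
Siglech, chr7:55767934-55768233, plus strand: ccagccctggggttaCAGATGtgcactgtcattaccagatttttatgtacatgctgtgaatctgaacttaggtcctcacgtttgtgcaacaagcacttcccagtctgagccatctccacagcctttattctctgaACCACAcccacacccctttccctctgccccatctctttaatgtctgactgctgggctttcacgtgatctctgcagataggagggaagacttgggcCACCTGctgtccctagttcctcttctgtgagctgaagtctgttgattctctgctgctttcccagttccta
Jchain, chr5:88527848-88528147, minus strand: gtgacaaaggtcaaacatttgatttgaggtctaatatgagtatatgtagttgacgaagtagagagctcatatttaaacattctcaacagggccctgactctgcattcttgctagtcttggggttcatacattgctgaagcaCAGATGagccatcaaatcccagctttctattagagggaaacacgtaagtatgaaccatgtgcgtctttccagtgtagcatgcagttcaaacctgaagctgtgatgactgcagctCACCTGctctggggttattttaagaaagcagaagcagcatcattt
Runx2, chr17:44814578-44814877, minus strand: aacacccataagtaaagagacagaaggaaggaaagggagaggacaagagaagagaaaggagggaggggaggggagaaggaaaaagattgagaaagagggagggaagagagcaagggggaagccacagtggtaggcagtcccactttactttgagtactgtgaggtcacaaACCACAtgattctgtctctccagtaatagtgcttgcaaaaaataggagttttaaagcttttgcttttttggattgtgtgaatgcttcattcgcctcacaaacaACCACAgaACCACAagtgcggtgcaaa
Bst2, chr8:71537423-71537722, minus strand: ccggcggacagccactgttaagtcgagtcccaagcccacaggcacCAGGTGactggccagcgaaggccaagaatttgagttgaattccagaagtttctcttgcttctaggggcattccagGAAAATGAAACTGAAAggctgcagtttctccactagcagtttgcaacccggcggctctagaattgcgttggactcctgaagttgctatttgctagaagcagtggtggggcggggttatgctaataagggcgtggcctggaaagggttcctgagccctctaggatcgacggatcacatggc
Pacsin1, chr17:27684989-27685288, plus strand: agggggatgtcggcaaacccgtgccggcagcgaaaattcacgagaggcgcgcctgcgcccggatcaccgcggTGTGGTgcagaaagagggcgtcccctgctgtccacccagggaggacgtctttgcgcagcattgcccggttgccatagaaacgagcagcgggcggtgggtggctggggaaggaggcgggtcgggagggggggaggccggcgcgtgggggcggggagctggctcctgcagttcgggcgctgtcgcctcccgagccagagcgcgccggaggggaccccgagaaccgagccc

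Siglech and Jchain each had 1 match to both E-box sequences, written on the plus strand of the gene as CACCTG and CAGATG. Bst2 had 1 CAGGTG and 2 overlapping matches to the interferon-response sequence, whose first bases lie 130 and 124 bases before the start site, and these are the matches that form the long capital run in its sequence. Runx2 had 3 matches to the RUNX sequence, Siglech 1 and Pacsin1 1. Among all 32851 promoters of the table, CAGGTG was found in 20.2%, CATCTG in 17.2%, TGTGGT in 16.8% and the interferon-response sequence in 3.44%. The further E-box CAGCTG, the TATA sequence TATAAA, the composite ETS and IRF sequence (GGAA, 2 bases of any kind, GAAA) and the Pax sequence GCGTGAC had no match in the 5 windows and were found in 16.3%, 13.6%, 2.72% and 2.09% of all promoters. The Pacsin1 window lies wholly inside the gene, which begins at chr17:27655591, and so shows an internal start site, not the region before the first base of the gene. A match describes letters in a window and was not tested for binding.

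On GRCm38.p6, Siglech lies at chr7:55768154-55779448, Jchain at chr5:88519809-88527897, Runx2 at chr17:44495987-44814797, Cox6a2 at chr7:128205435-128206366, Bst2 at chr8:71534255-71537472 and Pacsin1 at chr17:27655591-27711118. All are protein-coding. Siglech overlaps the lncRNA Gm39015 by 443 bp, Runx2 overlaps Runx2os3 by 737 bp and Supt3 by 37680 bp, and Cox6a2 overlaps Itgad by 70 bp. Whether the counting used strand is not given in the sources used here, so reads from these overlaps cannot be assigned with certainty. Itgad itself stayed at or below 3.49 TPM in every bone marrow sample.

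In Pax5 +/+ pro-B cells the 6 genes spanned low to high levels. Bst2, the tetherin protein that antibodies to PDCA-1 recognise, was the highest of them, and Jchain, Runx2 and Pacsin1 were mostly near or below 3 TPM. In recovered whole reads, the bone marrow samples held 10018678 to 43784791 reads over genes, and 3 reads corresponded to 0.0649 to 0.316 TPM for Siglech. Read length was 50 nucleotides in Pax5 +/+ replicates 1, 2 and 5, in Pax5 ∆CRD1/∆CRD1 and in Vav-Cre Pax5 fl/fl, and 100 nucleotides in the other bone marrow samples. By the study's methods, reads were cut to 50 bases before alignment. Read length therefore serves here as a label that splits the samples. Other differences between the sets so formed cannot be told apart from it.

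**Figure D1:**
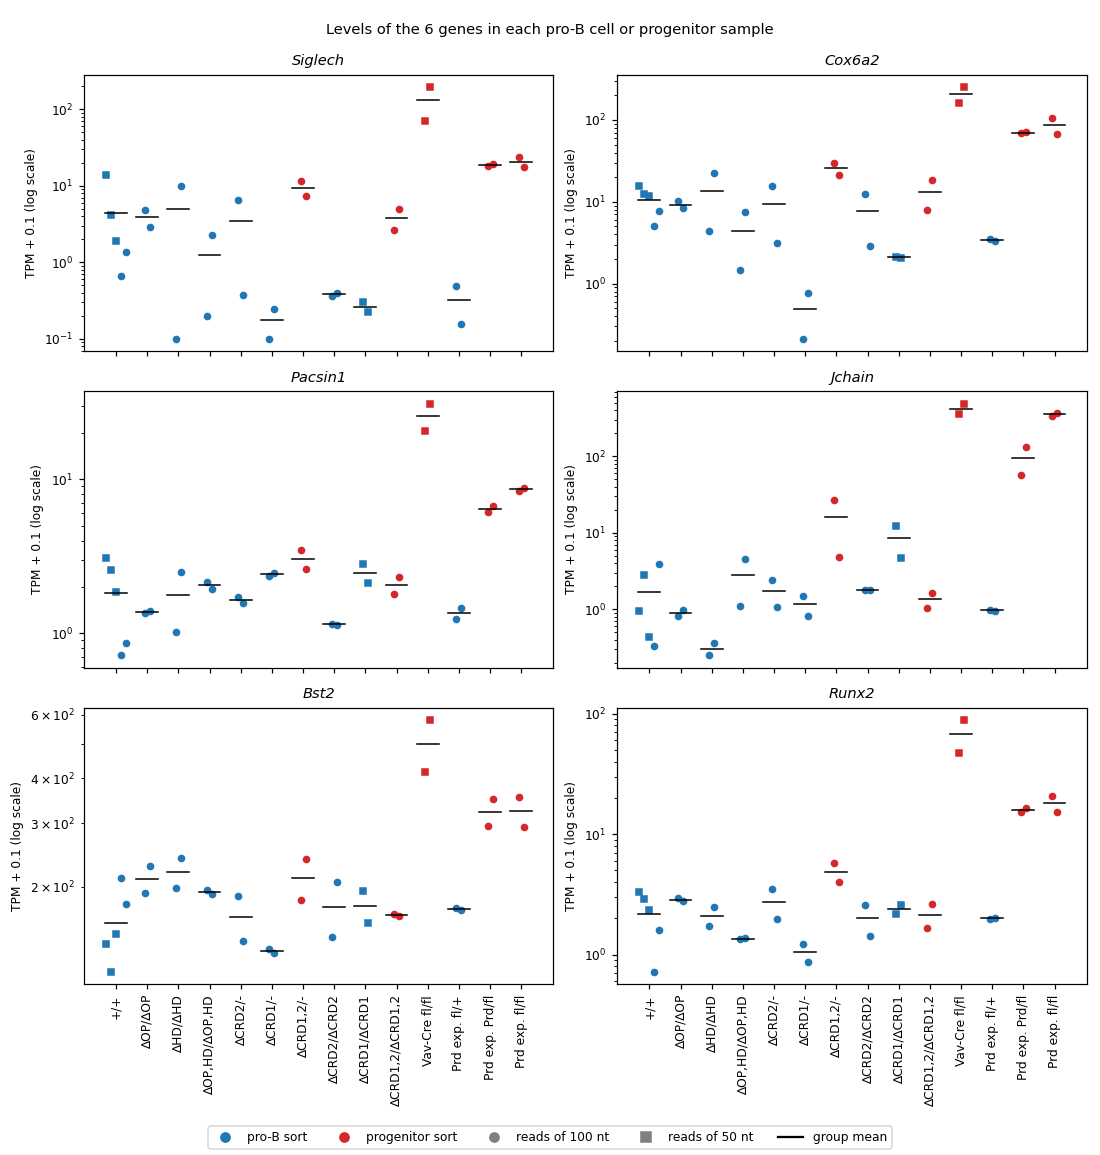
Level of each of the 6 genes in every bone marrow sample (y axis, TPM + 0.1 on a log scale; x axis, the 14 groups). Blue points are samples of the pro-B sort and red points samples of the progenitor sort, squares are reads of 50 and circles reads of 100 nucleotides, and bars are group means. For every gene the 3 highest group means are those of Vav-Cre Pax5 fl/fl, of the second Vav-Cre Pax5 fl/fl set in the Prd experiment and of Vav-Cre Pax5 Prd/fl.

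The first comparison asked how the genes behave when Pax5 is lost. All 6 genes rose in Vav-Cre Pax5 fl/fl progenitors relative to Pax5 +/+ pro-B cells, from 3.71-fold for Bst2 to 326-fold for Jchain as ratios of mean TPM among samples with reads of 50 nucleotides. Among all 13854 genes tested, 34.9% were called in this comparison and 18.8% were called higher. Because the 6 genes were chosen with earlier results of these data known, these shares describe the background and do not test the set. Both Vav-Cre Pax5 fl/fl samples lay above all 5 Pax5 +/+ samples for each of the 6 genes, a pattern shown by 24.2% of the genes above 1 TPM. All differences below are on the log2(TPM + 0.1) scale with their standard errors and Benjamini-Hochberg adjusted p-values from limma.

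Siglech, a sialic acid-binding lectin used as a surface marker of mouse pDCs, stood at 13.9, 4.01, 0.551, 1.27 and 1.81 TPM in Pax5 +/+ replicates 1 to 5. It stood at 70.6 and 195 TPM in Vav-Cre Pax5 fl/fl, so that the groups did not overlap although both were widely spread. The difference was 4.62 ± 1.00 (adjusted p = 0.00248). Bst2 was at 139, 116, 211, 179 and 148 TPM in Pax5 +/+ and at 416 and 580.3 TPM in Vav-Cre Pax5 fl/fl. With a difference of 1.88 ± 0.19 (adjusted p = 3.57e-06), Bst2 had the smallest change of the 6 genes from the highest starting level.

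Runx2, a RUNX family factor best known from bone formation and also used by pDCs, was at 3.18, 2.81, 0.621, 1.49 and 2.25 TPM in Pax5 +/+. In Vav-Cre Pax5 fl/fl it reached 47.3 and 88.1 TPM, far above every pro-B cell sample. The difference was 4.52 ± 0.42 (adjusted p = 1.42e-06). Its paralogs moved less: Runx3 rose by 1.04 ± 0.17 (adjusted p = 0.00028), while Runx1 differed by 0.38 ± 0.15 (adjusted p = 0.0695). As a share of the summed TPM of Runx2 and Runx1, Runx2 made up 1.53 to 4.16% in Pax5 +/+ and 32.4 to 45.1% in Vav-Cre Pax5 fl/fl.

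Jchain, which joins the subunits of secreted IgM and IgA, was at 0.860, 2.69, 0.230, 3.81 and 0.333 TPM in Pax5 +/+ and at 355 and 490 TPM in Vav-Cre Pax5 fl/fl. It had the largest change of the 6 genes in this comparison, with 8.63 ± 0.98 (adjusted p = 9.62e-06). The other genes of antibody-secreting cells gave few calls. Of 7 plasma cell genes tested, 1 rose and 1 fell: Xbp1, a factor of the secretory apparatus, by 0.54 ± 0.17 (adjusted p = 0.022), and Irf4 by -2.19 ± 0.16 (adjusted p = 1.07e-07).

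Cox6a2, the muscle-type isoform of a cytochrome c oxidase subunit, was at 15.3, 12.4, 5.01, 7.67 and 11.8 TPM in Pax5 +/+ and at 161 and 252 TPM in Vav-Cre Pax5 fl/fl (3.93 ± 0.71, adjusted p = 0.000586). The broadly expressed isoform Cox6a1 fell by 0.46 (SE 0.13, adjusted p = 0.0138). Cox6a2 made up 0.326 to 1.03% of the summed TPM of both isoforms in Pax5 +/+ and 11.4 to 18.7% in Vav-Cre Pax5 fl/fl. Pacsin1, a membrane-bending adaptor of endocytosis, went from 2.98, 2.47, 0.619, 0.762 and 1.74 TPM in Pax5 +/+ to 20.4 and 30.9 TPM (3.37 ± 0.29, adjusted p = 6.67e-07). Its paralogs Pacsin2 and Pacsin3 fell by 0.59 and 1.33 (adjusted p = 0.00048 and 0.0186), and Pacsin1 made up 0.768 to 3.50% of the sum of Pacsin1 and Pacsin2 in Pax5 +/+ and 28.3 to 35.1% in Vav-Cre Pax5 fl/fl.

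Each of these 6 calls held under all 18 alternatives that gave a value for it.

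**Figure D2:**
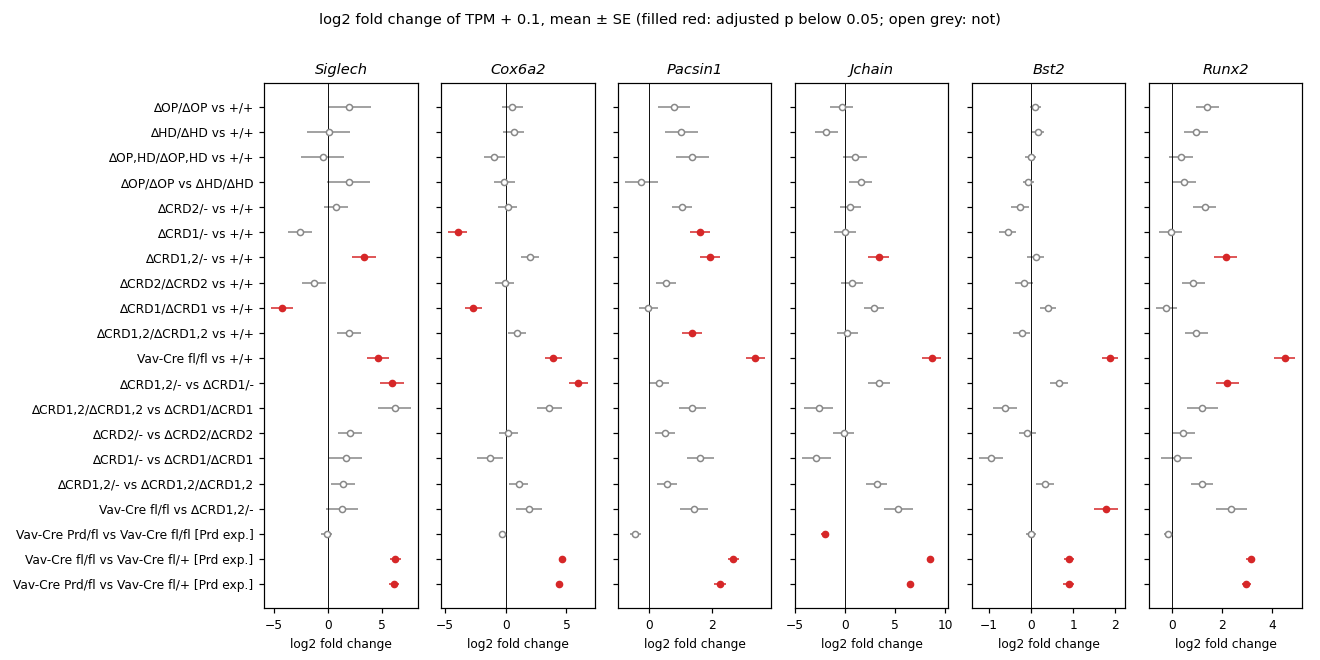
Difference of each of the 6 genes in 20 comparisons of bone marrow groups (x axis, log2 of TPM + 0.1; y axis, the comparison), as the limma estimate with its standard error. Filled red points passed an adjusted p of 0.05 and open points did not. All 6 genes are filled in Vav-Cre Pax5 fl/fl against Pax5 +/+ and in both comparisons with Vav-Cre Pax5 fl/+.

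Not every pDC gene followed. Of 25 other genes known from pDCs, 16 rose and 4 fell in Vav-Cre Pax5 fl/fl, with a median difference of 2.25 against 0.00 over all genes tested. One of those that rose, Ly6d, was itself a marker of the progenitor sort. The median of the 6 genes was 4.22. The endosomal RNA receptor Tlr7 rose by 3.81 ± 0.36, the surface receptor Clec12a by 3.58 ± 0.65 and Upb1, an enzyme of pyrimidine breakdown, by 3.55 ± 0.70 (adjusted p = 1.48e-06, 0.000609 and 0.00114). Of the regulators of pDC identity, Irf8 rose by 1.05 ± 0.16 (adjusted p = 0.000183) and Spib fell by 1.49 (SE 0.14, adjusted p = 1.78e-06). Tcf4 did not pass the test, with a difference of -0.26 ± 0.14 (adjusted p = 0.175). Id2, the antagonist of E proteins, rose by 2.4 ± 0.43 (adjusted p = 0.000613). Tcf4 was already at 66.4 to 116 TPM in Pax5 +/+, beside 76.2 and 105 TPM in Vav-Cre Pax5 fl/fl.

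Among Siglec genes, Siglecf and Cd33 rose by 2.76 ± 0.61 and 1.90 ± 0.52 (adjusted p = 0.00282 and 0.0113), whereas the B cell lectins Siglecg and Cd22 fell by 3.94 and 1.4 (adjusted p = 4.34e-09 and 3.32e-05). Siglece did not pass the test, with a difference of 1.04 ± 0.70 (adjusted p = 0.287).

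Markers of other cell types were measured in the same libraries. Of 8 tested conventional dendritic cell genes, 5 rose, led by Itgax (5.06 ± 0.82, adjusted p = 0.000241), Clec10a (3.81 ± 1.09, adjusted p = 0.0138) and Id2; the summed level of the list of 10 went from between 30.1 and 56.5 TPM in Pax5 +/+ to between 144 and 146 TPM in Vav-Cre Pax5 fl/fl. Of 17 interferon-stimulated genes, to which Bst2 is known to belong, 13 rose, led by Ifi44 (3.23 ± 0.54, adjusted p = 0.000336). Natural killer and innate lymphoid genes rose in 4 of 5 tested cases, and their summed level was 20.9 to 42.4 TPM in Pax5 +/+ and 63.2 to 94.0 TPM in Vav-Cre Pax5 fl/fl. Of 12 granulocyte and macrophage genes, 0 were called with limma, and their sum was spread from 780 to 6680 TPM in Pax5 +/+ and from 582 to 4327 TPM in Vav-Cre Pax5 fl/fl. Of 5 tested T lineage genes 4 rose, and the sum of that list was 113 to 140 TPM in Pax5 +/+ and 505 to 523 TPM in Vav-Cre Pax5 fl/fl. Of 5 progenitor genes 2 rose, and of 8 B lineage genes 7 fell. No defining marker of these lists was at 0 in all samples of either group. In bulk samples, fewer cells of a type and less RNA per cell cannot be told apart, and the part of other cell types in the rise of the 6 genes was not tested.

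The Prd experiment asked what the paired domain alone can do. In Vav-Cre Pax5 Prd/fl cells, 5 of the 6 genes had no called difference from Vav-Cre Pax5 fl/fl, whereas Jchain was lower. Both genotypes had all 6 genes called higher than in Vav-Cre Pax5 fl/+ pro-B cells, where 20.8% and 24.1% of the 12941 genes tested were called higher in Vav-Cre Pax5 fl/fl and in Vav-Cre Pax5 Prd/fl, and 39.9% and 40.7% in either direction. Between the latter, 1.97% of genes were called. These comparisons share their samples.

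Jchain stood at 0.877 and 0.865 TPM in Vav-Cre Pax5 fl/+, at 56.8 and 132 TPM in Vav-Cre Pax5 Prd/fl and at 341 and 368 TPM in Vav-Cre Pax5 fl/fl. The 3 groups did not overlap, and the level without any Pax5 domain was 3.75-fold that with the paired domain. Jchain was lower in Vav-Cre Pax5 Prd/fl by -2.03 ± 0.35 (adjusted p = 0.0475). This call was close to the threshold and held under 7 of 14 alternatives; without Vav-Cre Pax5 fl/fl replicate 1 or 2 the difference was -2.08 or -1.98 (adjusted p = 0.321 and 0.234). In the same comparison, 3 of 6 tested plasma cell genes rose in Vav-Cre Pax5 Prd/fl: Derl3 by 1.41 ± 0.11, Irf4 by 1.4 ± 0.08 and Xbp1 by 0.45 ± 0.08 (adjusted p = 0.00648, 0.00206 and 0.0494), so that Jchain and these genes, which were named after their values were seen, moved in opposite directions.

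Siglech was at 0.385 and 0.0564 TPM in Vav-Cre Pax5 fl/+, 18.2 and 18.97 TPM in Vav-Cre Pax5 Prd/fl and 23.5 and 17.3 TPM in Vav-Cre Pax5 fl/fl. Vav-Cre Pax5 Prd/fl and Vav-Cre Pax5 fl/fl overlapped, and both lay far above the control. The difference of Vav-Cre Pax5 Prd/fl from Vav-Cre Pax5 fl/fl was -0.11 ± 0.49, with a 95% interval from -1.30 to 1.07. For Bst2 the corresponding values were 174 and 173 TPM, 295 and 352 TPM, and 356 and 293 TPM. The difference of Bst2 between Vav-Cre Pax5 Prd/fl and Vav-Cre Pax5 fl/fl was -0.0028 ± 0.12, with an interval from -0.30 to 0.29, the narrowest of the 6 genes.

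Cox6a2 was at 3.42 and 3.19 TPM in Vav-Cre Pax5 fl/+, at 69.3 and 70.3 TPM in Vav-Cre Pax5 Prd/fl and at 107 and 67.4 TPM in Vav-Cre Pax5 fl/fl. Runx2 was at 1.88 and 1.93, at 15.1 and 16.3 and at 20.5 and 15.3 TPM in the same order. For both genes the ranges of Vav-Cre Pax5 Prd/fl and Vav-Cre Pax5 fl/fl overlapped. Pacsin1 was at 1.14 and 1.36, at 6.04 and 6.59 and at 8.25 and 8.74 TPM, a separation that did not pass the test (-0.42 ± 0.18, adjusted p = 0.269).

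The 2 sets of Vav-Cre Pax5 fl/fl progenitors, which were sequenced in separate experiments with reads of different length and, by their labels, with different gating, had unequal levels. The mean TPM in the first set was 6.51-fold that in the Prd experiment for Siglech, 3.79-fold for Runx2, 3.02-fold for Pacsin1, 2.36-fold for Cox6a2, 1.53-fold for Bst2 and 1.19-fold for Jchain. Only for Jchain did the ranges of the 2 sets overlap. Experiment, gating and read length cannot be told apart here, and this difference was not tested. The differences from the controls of each set stand side by side as 4.62 and 6.20 for Siglech, 8.63 and 8.51 for Jchain, 4.52 and 3.15 for Runx2, 3.93 and 4.64 for Cox6a2, 1.88 and 0.90 for Bst2 and 3.37 and 2.67 for Pacsin1. All 6 genes rose in both sets.

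Of 24 other pDC genes tested in the Prd experiment, 14 rose and 8 fell in Vav-Cre Pax5 fl/fl, and 0 of 24 differed between Vav-Cre Pax5 Prd/fl and Vav-Cre Pax5 fl/fl in limma. Tcf4 fell by 0.54 (SE 0.08), Spib by 1.55 (SE 0.15) and Irf8 by 0.49 (SE 0.16) in Vav-Cre Pax5 fl/fl, while Id2 rose by 2.64 ± 0.23 (adjusted p = 0.0031, 0.000453, 0.0486 and 0.000319). Conventional dendritic cell genes summed to 29.5 to 32.1 TPM in Vav-Cre Pax5 fl/+ and 102 to 104 TPM in Vav-Cre Pax5 fl/fl, and 4 of 4 tested rose. Of 11 granulocyte and macrophage genes 8 rose and 1 fell. The part of these cells in the levels of the 6 genes was not tested.

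The hemizygous C-terminal mutants were compared to learn which domain the genes respond to. Pax5 ∆CRD1,2/- cells had 4 of the 6 genes called higher than Pax5 +/+, against 9.3% of all genes called higher and 23.5% called in either direction. Pax5 ∆CRD1/- cells had Cox6a2 lower and Pacsin1 higher, against 10.9% of genes called in either direction. Pax5 ∆CRD2/- cells had 0 called with limma, against 0.967% of genes; 2 genes had an unadjusted p under 0.05, edgeR called 0 and DESeq2 called 2.

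Cox6a2 separated the mutants most clearly. It was at 5.01 and 7.67 TPM in the Pax5 +/+ samples with reads of 100 nucleotides, at 15.6 and 3.04 TPM in Pax5 ∆CRD2/-, at 0.112 and 0.667 TPM in Pax5 ∆CRD1/- and at 30.1 and 21.1 TPM in Pax5 ∆CRD1,2/-. The Pax5 ∆CRD1/- values rest on 1 and 6 reads, and both lie below every other bone marrow sample. Cox6a2 fell by 3.96 (SE 0.78, adjusted p = 0.00402) in Pax5 ∆CRD1/-. Without Pax5 ∆CRD1/- replicate 1 the difference was -3.04 (adjusted p = 0.0789). In Pax5 ∆CRD1,2/- it differed from Pax5 +/+ by 2.01 ± 0.78 (adjusted p = 0.0786) and was thus not called. Both samples lay above all 5 Pax5 +/+ samples, a pattern shown by 14.7% of the genes above 1 TPM. Compared directly, Cox6a2 was higher in Pax5 ∆CRD1,2/- than in Pax5 ∆CRD1/- by 5.97 ± 0.78 (adjusted p = 0.00063), where 3.57% of genes were called and 1.02% were called higher, and this held under all 15 alternatives.

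Siglech showed the same order at lower levels. It was at 0.551 and 1.27 TPM in Pax5 +/+ replicates 3 and 4, at 6.37 and 0.269 TPM in Pax5 ∆CRD2/-, at 0 and 0.148 TPM in Pax5 ∆CRD1/- and at 11.4 and 7.33 TPM in Pax5 ∆CRD1,2/-. The Pax5 ∆CRD1/- values rest on 0 and 5 reads, so that fitted differences to this group depend on the value added before taking logs. In Pax5 ∆CRD1,2/- Siglech rose by 3.29 ± 1.10 (adjusted p = 0.0437), a call at the threshold that held under 8 of 17 alternatives. It was lost without Pax5 +/+ replicate 2, 3 or 4 (3.29, 2.76 and 3.83; adjusted p = 0.0542, 0.203 and 0.0742) and without Pax5 ∆CRD1,2/- replicate 1 or 2 (2.97 and 3.61; adjusted p = 0.199 and 0.0921). The difference between Pax5 ∆CRD1,2/- and Pax5 ∆CRD1/- was 5.88 ± 1.10 (adjusted p = 0.00848), 3.25 when 1 TPM was added, and not called without replicate 1 of either group (5.23 and 5.56; adjusted p = 0.11 and 0.0894). Pax5 ∆CRD1/- differed from Pax5 +/+ by -2.59 ± 1.10 (adjusted p = 0.172).

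Runx2 was at 0.621 and 1.49 TPM in Pax5 +/+ with reads of 100 nucleotides, at 1.11 and 0.771 TPM in Pax5 ∆CRD1/-, at 3.37 and 1.89 TPM in Pax5 ∆CRD2/- and at 5.61 and 3.88 TPM in Pax5 ∆CRD1,2/-. It rose in Pax5 ∆CRD1,2/- by 2.15 ± 0.46 (adjusted p = 0.00364), and both samples lay above every Pax5 +/+ sample, as for 14.7% of the genes above 1 TPM. The call was lost without Pax5 +/+ replicate 3 (1.58, adjusted p = 0.0511) and without a term for read length (1.32, adjusted p = 0.0528). Against Pax5 ∆CRD1/- it was higher by 2.21 ± 0.46 (adjusted p = 0.0162), a call lost without Pax5 ∆CRD1/- replicate 1 or 2 (adjusted p = 0.0642 and 0.176) or without Pax5 ∆CRD1,2/- replicate 1 (adjusted p = 0.16).

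Jchain was at 0.230 and 3.81 TPM in Pax5 +/+ with reads of 100 nucleotides, at 1.41 and 0.732 TPM in Pax5 ∆CRD1/-, at 2.29 and 0.988 TPM in Pax5 ∆CRD2/- and at 27.1 and 4.78 TPM in Pax5 ∆CRD1,2/-. The Pax5 ∆CRD1,2/- samples differed widely from each other. Jchain rose by 3.34 ± 1.07 (adjusted p = 0.0361), but by 1.56 without Pax5 +/+ replicate 3, by 5.13 without Pax5 +/+ replicate 4 and by 2.10 without Pax5 ∆CRD1,2/- replicate 1 (adjusted p = 0.357, 0.00513 and 0.318).

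Pacsin1 was called higher in both Pax5 ∆CRD1/- and Pax5 ∆CRD1,2/-. It was at 0.619 and 0.762 TPM in Pax5 +/+ with reads of 100 nucleotides, at 1.61 and 1.48 TPM in Pax5 ∆CRD2/-, at 2.26 and 2.37 TPM in Pax5 ∆CRD1/- and at 3.36 and 2.51 TPM in Pax5 ∆CRD1,2/-, and Pax5 +/+ samples with reads of 50 nucleotides reached 2.98 TPM. In all 8 mutants with reads of 100 nucleotides, including those of the central domains and of CRD2 alone, Pacsin1 lay above both of these matched controls, as 17.0 to 28.9% of genes did in each mutant. Pacsin1 rose by 1.62 ± 0.32 and 1.93 ± 0.32 (adjusted p = 0.00421 and 0.000535). Both calls rest on the term for read length, since without it the differences were 0.64 and 0.95 (adjusted p = 0.392 and 0.129), and they were also lost when only the 2 groups compared were fitted (adjusted p = 0.084 and 0.0511). Bst2 was at 135 and 131 TPM in Pax5 ∆CRD1/-, at 188 and 142 TPM in Pax5 ∆CRD2/- and at 184 and 239 TPM in Pax5 ∆CRD1,2/-, where its difference from Pax5 +/+ was 0.11 (adjusted p = 0.764).

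Other pDC genes split in both directions in these mutants. Of 25 tested, 7 rose and 6 fell in Pax5 ∆CRD1,2/-, and 4 rose and 5 fell in Pax5 ∆CRD1/-. Tcf4, Spib and Irf8 fell by 0.79, 1.06 and 0.87 in Pax5 ∆CRD1,2/- (adjusted p = 0.0022, 0.000205 and 0.00302), and Id2 differed by 0.24 ± 0.48 (adjusted p = 0.773). The summed level of conventional dendritic cell genes was 86.4 to 101 TPM in Pax5 ∆CRD1,2/- and 47.4 to 49.9 TPM in Pax5 ∆CRD1/-, and that of granulocyte and macrophage genes was 1118 to 1785 TPM and 267 to 463 TPM. The pro-B sort of Pax5 ∆CRD1/- and the progenitor sort of Pax5 ∆CRD1,2/- go with these differences, and their part was not tested.

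The homozygous mutants gave fewer calls. In Pax5 ∆CRD1/∆CRD1, Siglech and Cox6a2 were called lower than in Pax5 +/+, against 4.11% of genes called lower and 7.75% called in either direction. In Pax5 ∆CRD1,2/∆CRD1,2, Pacsin1 was called higher, against 24.1%. In Pax5 ∆CRD2/∆CRD2, 0 of the 6 genes were called with limma, 0 had an unadjusted p under 0.05, and edgeR and DESeq2 called 0, against 0.115% of genes.

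Siglech was at 0.200 and 0.120 TPM in Pax5 ∆CRD1/∆CRD1, below all 5 Pax5 +/+ samples, as were 10.9% of the genes above 1 TPM. It fell by 4.22 (SE 1.00, adjusted p = 0.0183). The call was lost without either Pax5 ∆CRD1/∆CRD1 replicate (-4.44 and -3.99; adjusted p = 0.125 and 0.154) and without Pax5 +/+ replicate 1, the highest control (-3.45, adjusted p = 0.0702). Cox6a2, at 2.01 and 1.96 TPM, fell by 2.66 (SE 0.71, adjusted p = 0.0341). This call held under 9 of 18 alternatives and was lost without Pax5 ∆CRD1/∆CRD1 replicate 1 or 2 (adjusted p = 0.215 and 0.192), without Pax5 +/+ replicate 1 or 2 (adjusted p = 0.0907 and 0.0743) and with the replicate number as a block (-2.73, adjusted p = 0.0861). In both genotypes that lack CRD1 alone, Siglech was at or below 0.200 TPM and Cox6a2 at or below 2.01 TPM.

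Jchain went the other way in Pax5 ∆CRD1/∆CRD1, at 12.1 and 4.64 TPM against 0.860, 2.69 and 0.333 TPM in Pax5 +/+ with reads of 50 nucleotides. The samples did not overlap, and 16.4% of the genes above 1 TPM likewise lay above these controls. The difference of 2.85 ± 0.98 did not pass the test (adjusted p = 0.102). It passed without Pax5 +/+ replicate 3 or 4 (adjusted p = 0.0455 and 0.0443). In Pax5 ∆CRD1,2/∆CRD1,2 Jchain was at 0.948 and 1.56 TPM, within the range of the controls.

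In Pax5 ∆CRD1,2/∆CRD1,2, Siglech was at 2.50 and 4.86 TPM, Cox6a2 at 7.74 and 18.4 TPM, Runx2 at 1.56 and 2.52 TPM and Bst2 at 168 and 167 TPM, none of them called. Pacsin1, at 1.70 and 2.20 TPM, rose by 1.37 ± 0.32 (adjusted p = 0.00633). That call was lost without Pax5 ∆CRD1,2/∆CRD1,2 replicate 2 (1.19, adjusted p = 0.0647) and without the read length term (0.39, adjusted p = 0.563). Against Pax5 ∆CRD1/∆CRD1, Siglech was higher by 6.15 ± 1.49 (adjusted p = 0.0575) and 0 of the 6 genes were called with limma, against 1.56% of genes; 4 had an unadjusted p under 0.05, edgeR called 2 and DESeq2 called 3.

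Hemizygous and homozygous cells of the same mutation were compared as well. For ∆CRD2, ∆CRD1 and ∆CRD1,2, limma called 0 of the 6 genes, against 0.224%, 0.0289% and 0.159% of all genes. In the ∆CRD1 comparison 2 genes and in the ∆CRD1,2 comparison 2 genes had an unadjusted p under 0.05, edgeR called 0 in each, and DESeq2 called 1 in the ∆CRD1 comparison. The difference between the ∆CRD1,2 and ∆CRD1 effects in hemizygous and in homozygous cells was not called for any of the 6 genes in limma (0.00722% of genes called); 2 had an unadjusted p under 0.05, edgeR called 0 and DESeq2 called 2. A missed threshold with 2 samples a group leaves wide intervals and does not show that the genotypes had the same levels.

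Vav-Cre Pax5 fl/fl and Pax5 ∆CRD1,2/- cells were sorted in the same way but sequenced with reads of different length. The mean TPM in Vav-Cre Pax5 fl/fl was 26.5-fold that in Pax5 ∆CRD1,2/- for Jchain, 14.3-fold for Runx2, 14.1-fold for Siglech, 8.73-fold for Pacsin1, 8.05-fold for Cox6a2 and 2.35-fold for Bst2. With read length in the model, Bst2 was called, at 1.77 ± 0.28 (adjusted p = 0.00395, all 13 alternatives), where 3.65% of genes were called. Runx2 and Jchain missed the threshold, at 2.36 ± 0.62 and 5.29 ± 1.45 (adjusted p = 0.0524 and 0.063), and Siglech was at 1.32 (adjusted p = 0.748). These fitted differences contain the read length term, which could be estimated only from Pax5 +/+. For Siglech, the means of Pax5 +/+ were 6.57 TPM with reads of 50 and 0.911 TPM with reads of 100 nucleotides. This spread between controls lowers the fitted difference to 1.32, which is therefore not the observed difference between the 2 genotypes. In this comparison 4 of the 6 genes had an unadjusted p under 0.05, edgeR called 3 and DESeq2 called 4, and Runx2 and Jchain were each called under 5 of 13 alternatives. Jchain passed without Pax5 ∆CRD1,2/- replicate 1 (6.53, adjusted p = 0.0491).

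The central domain mutants were compared with Pax5 +/+ replicates 3 and 4, whose reads were also 100 nucleotides long. In limma 0 of 24 combinations of gene and comparison were called, where 0.485% of genes were called for ∆OP, 0.639% for ∆HD, 1.22% for ∆OP,HD and 3.96% between ∆OP and ∆HD. An unadjusted p under 0.05 was found for 2 combinations, edgeR called 0 and DESeq2 called 2. Runx2 was at 2.84 and 2.66 TPM in Pax5 ∆OP/∆OP, above the matched controls at 0.621 and 1.49 TPM (1.41 ± 0.47, adjusted p = 0.175, and called in DESeq2 with adjusted p = 0.00544), but within the range of all 5 Pax5 +/+ samples. In that mutant 23.7% of the genes above 1 TPM lay above both matched controls. Pacsin1 in Pax5 ∆OP,HD/∆OP,HD was at 2.05 and 1.84 TPM (1.38 ± 0.52, adjusted p = 0.287).

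Siglech and Cox6a2 differed widely between replicates of these genotypes. In Pax5 ∆HD/∆HD, Siglech was at 0 and 9.86 TPM and Cox6a2 at 4.26 and 22.4 TPM, so that replicate 2 was high for both. Without both central domains they were at 0.0979 and 2.19 TPM and at 1.35 and 7.37 TPM, again with replicate 2 higher for both. Jchain was at 0.152 and 0.263 TPM in Pax5 ∆HD/∆HD, the lowest group mean of Jchain, and DESeq2 called it lower than in Pax5 +/+ (adjusted p = 0.0497). In Pax5 ∆OP/∆OP, Siglech was at 4.70 and 2.82 TPM and Cox6a2 at 10.02 and 8.23 TPM. Bst2 stayed between 192 and 241 TPM in all 3 mutants.

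In the same samples the granulocyte and macrophage sum was 521 and 1719 TPM in Pax5 ∆HD/∆HD replicates 1 and 2, and in replicates 1 and 2 of Pax5 ∆OP,HD/∆OP,HD it was 671 and 6377 TPM. Within each of these 2 groups the sum was higher where Siglech and Cox6a2 were higher. Between groups this did not hold throughout: in Pax5 ∆OP/∆OP the sum was 6523 to 6959 TPM, with Siglech at 4.70 and 2.82 TPM. In Pax5 ∆HD/∆HD replicate 2 Siglech was higher than that, at 9.86 TPM, beside the lower sum. In Pax5 ∆CRD2/- the sum was 15816 and 1157 TPM, Siglech 6.37 and 0.269 TPM and Cox6a2 15.6 and 3.04 TPM, and in Pax5 ∆CRD2/∆CRD2 the sum was 8831 and 656 TPM, Cox6a2 12.4 and 2.79 TPM but Siglech 0.263 and 0.302 TPM. The part of these cells in the spread of the genes was not tested.

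**Figure D3:**
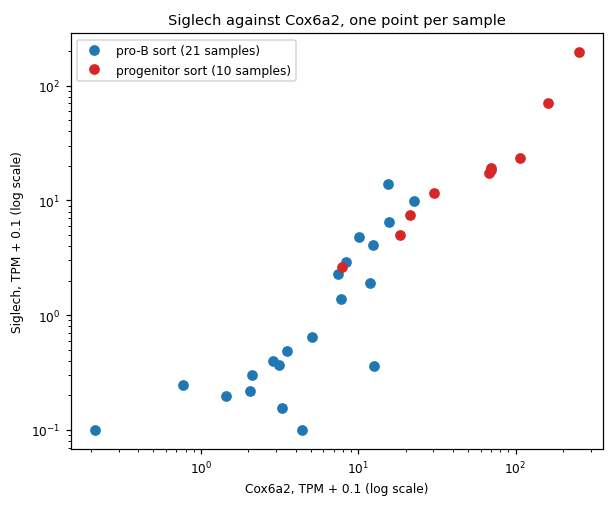
Siglech (y axis) against Cox6a2 (x axis) in each of 31 bone marrow samples, both as TPM + 0.1 on log scales. Blue points are the 21 samples of the pro-B sort and red points the 10 of the progenitor sort. The genes rise together within both sorts, and Vav-Cre Pax5 fl/fl lies at the upper right.

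The 6 genes were alike over all samples, and less so within the pro-B sort. Over the 31 bone marrow samples, Pearson's r of log2(TPM + 0.1) between pairs of the 6 genes was 0.68 to 0.92. Within the 10 samples of the progenitor sort it was 0.86 to 0.99. Within the 21 pro-B sort samples the highest values were 0.80 for Siglech with Cox6a2 and 0.61 for Runx2 with Cox6a2, and the lowest was -0.38 for Bst2 with Pacsin1. These are descriptions, since samples share genotype, sort and read length.

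Among 11492 genes, those most like each of the 6 genes over the 31 samples were ranked by r. For Siglech they were Cd7 (0.96), Clec10a (0.94) and Prss30 (0.93), and these also had r of 0.90, 0.88 and 0.85 within the 21 pro-B sort samples. For Cox6a2 they were Itgax (0.92), Siglech (0.92) and Cd7 (0.91), with 0.78, 0.80 and 0.72 within that sort. Genes were not ranked within the pro-B sort.
For Runx2 the nearest were Mycl (0.94), Fyb (0.94) and Hs3st1 (0.94), for Pacsin1 Srpk2 (0.94), Csf2rb2 (0.93) and Il6st (0.93), and for Bst2 Sec24d (0.89), Calhm2 (0.88) and Tmem268 (0.87). For Jchain they were 5830411N06Rik (0.92), Ern1 (0.91), which encodes a sensor of unfolded protein, and Srpk2 (0.91), and within the pro-B sort samples these fell to 0.09, 0.23 and 0.53.

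The order of group means was also followed over the 14 groups. For Siglech, Runx2, Cox6a2 and Bst2, the ranges of Vav-Cre Pax5 fl/fl and Vav-Cre Pax5 Prd/fl in the Prd experiment overlapped, while for Jchain and Pacsin1 they did not. The third group was separated from the fourth for every gene. The lowest mean was that of Pax5 ∆CRD1/- for Siglech, Runx2, Cox6a2 and Bst2, of Pax5 ∆HD/∆HD for Jchain and of Pax5 ∆CRD2/∆CRD2 for Pacsin1. Of these, the ranges of Siglech and Bst2 in Pax5 ∆CRD1/- overlapped those of the next group.

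The lymphoid samples placed the genes along early T cell development. They comprised lymphoid-primed multipotent progenitors (LMPP, 2 samples) of the bone marrow and thymic stages, all labelled wild type except Rag2-/- DN3a. The thymic groups were DN1, DN2a and DN2b (3 samples each), and DN3a, DN3b and Rag2-/- DN3a (2 samples each). Rag2-/- cells are unable to rearrange antigen receptor genes. The double negative (DN) stages were sorted after removal of lineage-positive cells including CD11c+ cells. CD44, CD25 and Kit defined DN1, DN2a and DN2b, while Thy1.2, CD25, CD44, CD28 and CD71 defined DN3a and DN3b. DN3b cells, which have passed selection for the T cell receptor β chain, were positive for CD28 and CD71, and DN3a cells were negative for both. Each gene has 2 deposited values in a sample, whose mean is used here, and these levels come from another alignment than the bone marrow values and are compared only with each other.

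**Figure D4:**
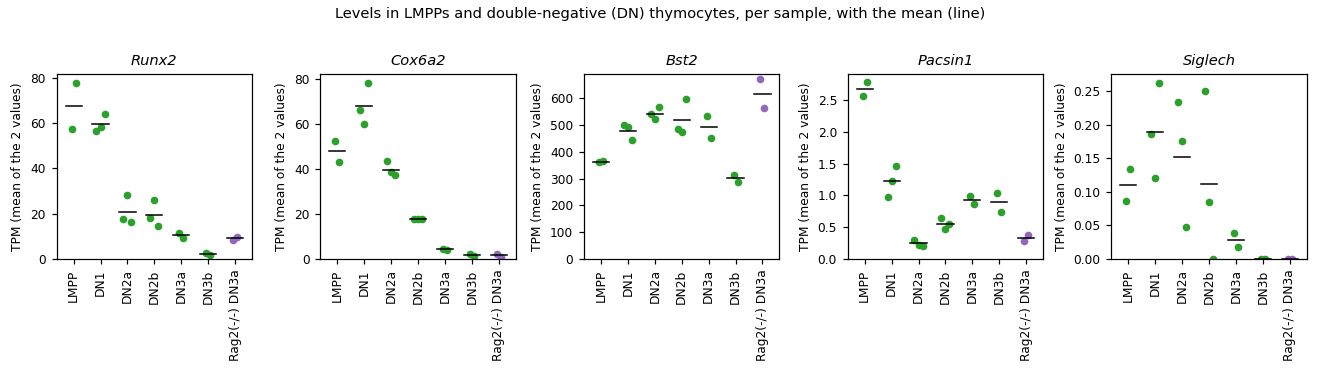
Level of Siglech, Runx2, Cox6a2, Bst2 and Pacsin1 in each lymphoid sample (y axis, TPM on a linear scale that differs between panels; x axis, LMPP, DN1, DN2a, DN2b, DN3a, DN3b and Rag2-/- DN3a). Points are samples and bars are group means. Runx2 and Cox6a2 are high in LMPP and DN1 and low in DN3b, Bst2 is high throughout, and Siglech stays below 0.3 TPM.

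Siglech was near 0 along the whole series. It was at 0.0862 and 0.134 TPM in LMPP, at most 0.262 TPM in DN1, at most 0.25 TPM in DN2b and listed at 0 in DN3b and Rag2-/- DN3a, and it did not reach the level needed for testing. Runx2 and Cox6a2 were present at these early stages without it.

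Runx2 was at 57.5 and 77.9 TPM in LMPP, at 56.6 to 64.2 TPM in DN1, at 16.1 to 28.4 TPM in DN2a, at 14.3 to 25.8 TPM in DN2b, at 11.5 and 9.08 TPM in DN3a and at 2.66 and 1.80 TPM in DN3b. The mean was 30.3-fold higher in LMPP than in DN3b. Runx2 fell at 3 of the 5 steps: from DN1 to DN2a by 1.57 (SE 0.25, adjusted p = 0.000353, where 33.7% of the 13482 genes tested were called, 22.9% lower), from DN2b to DN3a by 0.88 (SE 0.28, adjusted p = 0.0192, 45.8% of genes called, 14.4% lower) and from DN3a to DN3b by 2.17 (SE 0.30, adjusted p = 4.35e-05, 53.4% of genes called, 39.2% lower). Of these, the step to DN3a was lost without DN3a replicate 2 (-0.71, adjusted p = 0.158) or DN2b replicate 1 (-0.65, adjusted p = 0.0637). LMPP and DN1 overlapped, as did DN2a and DN2b.

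**Figure D5:**
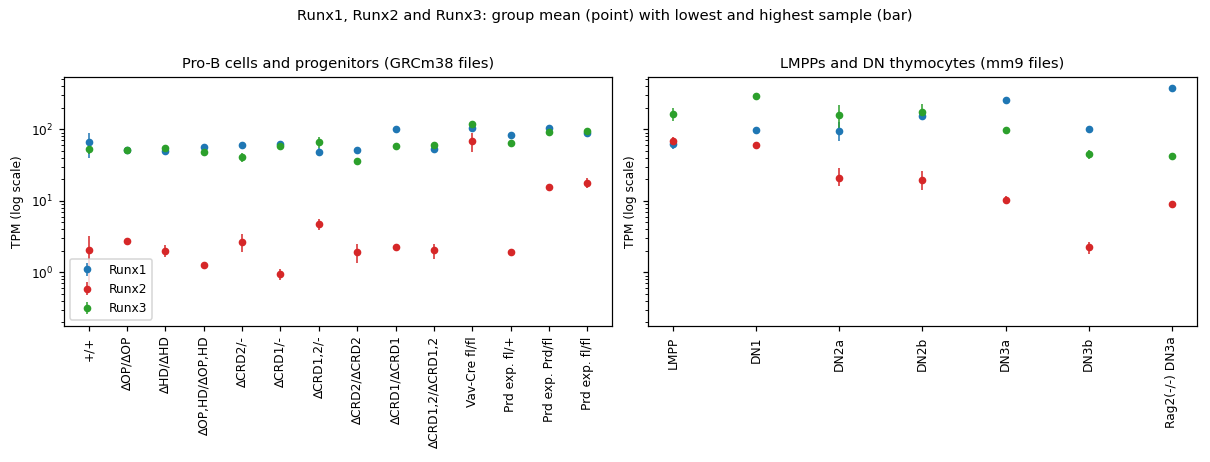
Level of Runx1, Runx2 and Runx3 (y axis, mean TPM of the group on a log scale) in the bone marrow groups and, in a separate panel, in the lymphoid groups (x axis), with bars from the lowest to the highest sample. Runx2 is the lowest of the 3 in Pax5 +/+ pro-B cells and in DN3b, and near Runx1 in LMPP.

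From DN2b to DN3a, Runx2 fell while its paralog Runx1 rose. As a share of the sum of Runx2 and Runx1, Runx2 made up 52.0 to 52.1% in LMPP, 36.9 to 38.5% in DN1, 3.50 to 4.11% in DN3a and 1.87 to 2.41% in DN3b. Runx1 rose from LMPP to DN1 by 0.68, from DN2a to DN2b by 0.71 and from DN2b to DN3a by 0.77 (adjusted p = 0.0391, 0.018 and 0.0101), and fell from DN3a to DN3b by 1.36 (adjusted p = 0.000258).

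Cox6a2 was at 52.2 and 43.2 TPM in LMPP, at 59.8 to 78.2 TPM in DN1, at 37.2 to 43.3 TPM in DN2a, at 17.5 to 17.8 TPM in DN2b, at 4.39 and 4.00 TPM in DN3a and at 2.13 and 1.31 TPM in DN3b. From DN1 on, no 2 neighbouring stages overlapped. It fell at each of 4 steps: from DN1 to DN2a by 0.77 (SE 0.24, adjusted p = 0.0251), to DN2b by 1.16 (SE 0.24, adjusted p = 0.00376), to DN3a by 2.05 (SE 0.27, adjusted p = 4.83e-05) and to DN3b by 1.27 (SE 0.29, adjusted p = 0.00237). The first of these was lost without DN1 replicate 1 (-0.67, adjusted p = 0.0999), the first of the DN1 samples numbered 2 (-0.79, adjusted p = 0.0572), the second of the DN2a samples numbered 1 (-0.73, adjusted p = 0.079) and under scaling between samples (-0.61, adjusted p = 0.0695). Cox6a1 rose by 1.60 ± 0.10 from DN3a to DN3b (adjusted p = 5.34e-08), and the share of Cox6a2 in both isoforms was 4.31 to 6.43% in DN1 and 0.0526 to 0.0775% in DN3b.

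Bst2 was at 361 and 366 TPM in LMPP, at 443 to 499 TPM in DN1, at 521 to 567 TPM in DN2a, at 475 to 599 TPM in DN2b, at 533 and 453 TPM in DN3a and at 313 and 287 TPM in DN3b. It was the most abundant of the 5 genes at every stage. From LMPP to DN1, where 18.6% of genes were called, Bst2 rose by 0.40 ± 0.12 (adjusted p = 0.0349), a call held under 9 of 16 alternatives and lost without either LMPP sample (0.39 and 0.41; adjusted p = 0.166 and 0.116) or without either DN1 sample numbered 2 (0.37 in both cases; adjusted p = 0.105 and 0.0975). From DN3a to DN3b it fell by 0.71 (SE 0.13, adjusted p = 0.000502). The median of all genes moved by -0.41 in this step, and after scaling between samples the difference of Bst2 was -0.36 (adjusted p = 0.134).

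Pacsin1 was low and reached its lowest level in DN2a. It was at 2.57 and 2.78 TPM in LMPP, at 0.978 to 1.46 TPM in DN1, at 0.207 to 0.298 TPM in DN2a, at 0.464 to 0.643 TPM in DN2b, at 0.991 and 0.863 TPM in DN3a and at 1.04 and 0.737 TPM in DN3b. It fell from LMPP to DN1 by 1.08 (SE 0.27, adjusted p = 0.0119) and from DN1 to DN2a by 1.95 (SE 0.24, adjusted p = 5.01e-05). It then rose from DN2a to DN2b by 0.93 ± 0.24 (adjusted p = 0.0153, where 18.2% of genes were called). The first fall was lost without LMPP replicate 1 or 2 (-1.14 and -1.03; adjusted p = 0.0562 and 0.0697), and the rise without the first DN2b sample numbered 2 or the second DN2a sample numbered 1 (0.83 and 0.86; adjusted p = 0.059 and 0.0588).

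In Rag2-/- DN3a cells, where 26.4% of genes were called against DN3a and 19.5% were called lower, Cox6a2 was at 2.10 and 0.898 TPM and Pacsin1 at 0.276 and 0.372 TPM. Cox6a2 fell by 1.54 (SE 0.29, adjusted p = 0.00226), and by 0.97 without Rag2-/- DN3a replicate 2 (adjusted p = 0.0229). Pacsin1 fell by 1.28 (SE 0.30, adjusted p = 0.00689), a call lost without Rag2-/- DN3a replicate 1 (-1.12, adjusted p = 0.0531). Runx2, at 8.26 and 9.77 TPM, and Bst2, at 671 and 565 TPM, were not called.

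Of 23 other pDC genes tested along these stages, 8 rose and 2 fell from LMPP to DN1, led by Ly6d (4.91 ± 0.17), Ly6c2 (2.82 ± 0.39) and Tlr9 (2.08 ± 0.27), with adjusted p = 3.12e-10, 0.00013 and 6.61e-05. In the later steps, 7 rose and 12 fell to DN2a, 8 rose and 8 fell to DN2b, 10 rose and 5 fell to DN3a, and 0 rose and 18 fell to DN3b. Spib, at 0.293 and 0.395 TPM in LMPP, rose at each of the 4 steps up to DN3a, where it reached 108 and 145 TPM, and fell by 2.66 in DN3b (adjusted p = 6.05e-06). Irf8 ran the other way, falling by 1.01, 1.22 and 1.42 in the first 3 steps (adjusted p = 0.00111, 8.71e-05 and 2.93e-05). Runx2 and Cox6a2 were thus high where Spib was at its lowest. Granulocyte and macrophage genes summed to 2532 to 2657 TPM in LMPP, 1971 to 2240 TPM in DN1, 533 to 554 TPM in DN2a and 1.08 to 3.44 TPM in DN3b, and conventional dendritic cell genes to 69.6 to 75.4 TPM in DN1 and 12.7 to 13.5 TPM in DN3b. Both sums were lower in DN3b than in DN1, as were Runx2 and Cox6a2, but they did not move with these genes at every step. The conventional dendritic cell sum was 20.7 to 25.3 TPM in DN2b and 27.7 to 32.3 TPM in DN3a, a step at which both genes fell. The granulocyte and macrophage sum was lower in DN1 than in LMPP, whereas the mean of Cox6a2 was higher. The part of these cells in the levels of the genes was not tested.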

How the data were processed

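The authors prepared poly(A) RNA libraries from sorted cells. Bone marrow reads were aligned to GRCm38 with STAR 2.4.2a and counted with featureCounts, and lymphoid reads were aligned to mm9 with TopHat 1.4.1, as the study and the submitters' processing notes state. The deposited bone marrow tables hold TPM per gene, and 8 of them carry no gene names and were matched by row order, which all 25579 rows of the named tables share. The deposited lymphoid tables hold a signal with 2 TPM values per gene, averaged here. Deposited counts, present for 2 samples, gave the relative lengths of 16745 genes, and whole reads were recovered from TPM with these lengths. In every sample, 100% of the low read numbers tested came out whole within 0.01 reads. As the lengths come from the counts, the 2 samples do not check the recovery independently.

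The 6 genes and all gene lists were chosen with earlier results of these data known. Besides the 6 genes, the text names up to 3 called genes of a list with the largest change in Vav-Cre Pax5 fl/fl or from LMPP to DN1, paralogs, Tcf4, Spib, Irf8 and Id2, and the 3 most alike genes. Each model kept genes that exceeded 1 TPM in any of its samples, and limma 3.58.1 (R 4.3.3) tested log2(TPM + 0.1), two-sided and with a mean-variance trend. Benjamini-Hochberg adjustment covered every gene kept. A gene was called at an adjusted p under 0.05. The C-terminal model had a term for read length, which stood in for the study's batch correction. Only Pax5 +/+ had samples of both read lengths in this model, so the term was estimated from that group alone. The central domain model used the Pax5 +/+ samples with reads of 100 nucleotides. The fold scale understates changes of low genes. The C-terminal and Prd models were also run on simulated data. These held no read length effect and placed changes only in genes with higher read numbers. They do not cover calls that rest on few reads or on the read length term. Alternatives were edgeR 4.0.16 and DESeq2 1.42.0 on the recovered reads, other pseudocounts and filters, scaling between samples, no trend, no read length term, fits of the compared groups alone, the replicate number as a block, either lymphoid value, and leaving out each sample. Chromatin samples were not analysed here. One marker result is not reported here.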

Additional observations from a re-analysis of the deposited data

Results flagged for a closer look

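Siglech in Pax5 +/+ replicate 1 was at 13.9 TPM, far above the other 4 Pax5 +/+ samples at 0.551 to 4.01 TPM. Dixon's test at the 95% level picks out about 1 in 20 groups of normally distributed values by chance, and it was run on the Pax5 +/+ group for each of the 6 genes. It was run on TPM and not on the log scale of the models, so the flag holds for the TPM scale only. Granulocyte and macrophage genes summed to 1050 TPM in that sample and to 780 to 6680 TPM over the Pax5 +/+ group.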

How the results depend on the processing

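Counts below are combinations of a gene and a comparison that were called. DESeq2 called 34 of 84 in the C-terminal comparisons, where limma called 19 and edgeR 26, and 2 of 24 in the central domain comparisons, where limma and edgeR called 0; the cause was not tested. Leaving out 1 sample at a time gave 15 to 21 in the C-terminal, 0 to 0 in the central domain, 12 to 13 of 18 in the Prd and 12 to 14 of 24 in the T lineage comparisons. Of the 19, 13 and 14 combinations called in the C-terminal, Prd and T lineage comparisons, 8, 12 and 7 were called under every alternative run. No combination changed direction while called. Scaling between samples moved the median of all genes by over 0.1 in 5 comparisons, most in DN3a to DN3b (0.32). Siglech limits are set by depth: 3 reads correspond to up to 0.316 TPM, and 5 bone marrow samples had at most 3 reads. Intervals cover the spread of 2 samples in most groups.

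With the replicate number as a block, the C-terminal comparisons that could be fitted gave 11 of 30 called with the block and 11 without, and the Prd comparisons 13, the T lineage comparisons 14 and the central domain comparison of ∆OP with ∆HD 0 both with and without it. The block lost Cox6a2 in Pax5 ∆CRD1/∆CRD1 (adjusted p = 0.0861) and added Jchain in Pax5 ∆CRD1,2/- against Pax5 ∆CRD1/- (adjusted p = 0.0488). Same-numbered samples correlated by -0.19 to 0.17 in their deviations from group means over 45 pairs of groups of the central and C-terminal experiment, with 3 of the pairs over 0.1. The labels do not say what a number marks, and whether same-numbered samples shared a litter or day was not tested.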

Other observations

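Irf8, a factor of pDC and B cell development, moved in opposite directions in the 2 sets of Vav-Cre Pax5 fl/fl progenitors relative to their controls. It rose by 1.05 ± 0.16 against Pax5 +/+ (adjusted p = 0.000183, limma), from between 176 and 237 TPM to between 357 and 608 TPM, and fell by 0.49 (SE 0.16, adjusted p = 0.0486) against Vav-Cre Pax5 fl/+ in the Prd experiment, from between 248 and 266 TPM to between 162 and 207 TPM. The sets also differed in the gating their labels name, and the difference between them was not tested.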
